A study of Mus musculus with 6 samples.

Results

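The thioredoxin system was described by 10 genes in mouse BMDM, the macrophages obtained by culturing bone marrow: the thioredoxins Txn1 and Txn2, the thioredoxin reductases Txnrd1, Txnrd2 and Txnrd3, the thioredoxin-binding protein Txnip, and the thioredoxin-like proteins Txnl1, Txndc17, Nxn and Glrx3. They were chosen by symbol, and all 10 were found among the 14005 genes of the deposited table and passed its low-value filter in the test used here. PolyA-selected RNA was sequenced in 6 libraries. The 3 libraries labelled Txn1 KO carried the allele Txn1tm1.1Ees/J together with B6.129P2-Lyz2tm1(cre)lfo/J, in which Cre recombinase is expressed from the Lyz2 gene of myeloid cells. The 3 control libraries were wild-type C57BL/6J. The strain background of both groups was given as C57BL/6J and the sex as pooled male and female. The labels gave no age and no treatment, and since no library used here had the Cre without the Txn1 allele, effects of the Cre insertion and of the allele cannot be told apart. The study asked how loss of the protein TRX1 bears on expression of NLRP1 inflammasome genes.

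Thioredoxins are small proteins that reduce disulfides in other proteins through a pair of cysteines. The oxidized thioredoxin is reduced again by a thioredoxin reductase, a selenium-containing flavoenzyme that takes its electrons from NADPH. Txn1 and Txnrd1 encode the cytosolic pair and Txn2 and Txnrd2 the mitochondrial pair. In macrophages, as in other cells, the reduced protein serves peroxiredoxins, methionine sulfoxide reductases and ribonucleotide reductase. Txnip binds reduced thioredoxin, and NRF2, a transcription factor that responds to oxidants, is known to drive Txnrd1.

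The total of reads in the listed genes ran from 22508616 to 31127228 in the libraries labelled Txn1 KO and from 29716640 to 38726953 in wild type. Txn1 KO library 3 and wild-type library 1 stood apart from the others by liver transcripts: Alb, albumin, was at 580.0 normalized counts in that library labelled Txn1 KO and at 642.9 in that wild-type library, while the other libraries labelled Txn1 KO had 0 and the other wild-type libraries at most 0.838. Normalized counts are read counts divided by a size factor per library. Lyz2, which the Cre insertion interrupts, had 4327, 3251 and 1775 normalized counts in the libraries labelled Txn1 KO, against 361315, 363625 and 368284 in wild type. Of the macrophage markers, Csf1r, the receptor for the growth factor M-CSF, was at 52094 ± 495 normalized counts in the libraries labelled Txn1 KO and 50502 ± 1285 in wild type (SD, n = 3 each). Of the 9 rows for macrophage markers, 4 rose, 3 fell and 2 did not pass the test used below. They stand for 8 genes, since Itgam rose under each of its identifiers. A low row of Itgam had only 29.5 normalized counts on average in the libraries labelled Txn1 KO and 8.62 in wild type. The fall of Cd68 was lost in 4 alternative settings, among them without Txn1 KO library 3 and wild-type library 1 (limma adjusted p = 0.180). The labels do not say that replicates were separate animals or cultures, so each p-value reflects only the spread among these libraries, which may be technical.

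Promoter windows are shown for Txnrd1 and Txnip, the members with the smallest adjusted p in the comparison that follows. Both come from RefSeq on GRCm38.p6 and run from 250 bases before to 50 bases after an annotated start, 5′ to 3′ on the gene's strand. Capitals mark matches to the motifs TGACNNNGC (the core of the antioxidant response element that NRF2 binds), a pair of CACGNG sites 5 bases apart (a carbohydrate response element, bound by the MondoA-Mlx factors), GTAAACA (forkhead), CCAAT and TATAAA, each searched on both strands. The Txnrd1 window is 1 of 3 in the table, at chr10:82858956-82859255 on the plus strand, and the Txnip window is at chr3:96557707-96558006 on the plus strand.
Txnrd1: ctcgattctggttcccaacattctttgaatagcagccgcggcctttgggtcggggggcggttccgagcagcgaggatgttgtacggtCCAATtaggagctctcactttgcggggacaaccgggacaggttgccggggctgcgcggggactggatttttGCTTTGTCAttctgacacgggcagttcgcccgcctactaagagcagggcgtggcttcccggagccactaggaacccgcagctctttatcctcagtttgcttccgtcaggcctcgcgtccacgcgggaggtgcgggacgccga
Txnip: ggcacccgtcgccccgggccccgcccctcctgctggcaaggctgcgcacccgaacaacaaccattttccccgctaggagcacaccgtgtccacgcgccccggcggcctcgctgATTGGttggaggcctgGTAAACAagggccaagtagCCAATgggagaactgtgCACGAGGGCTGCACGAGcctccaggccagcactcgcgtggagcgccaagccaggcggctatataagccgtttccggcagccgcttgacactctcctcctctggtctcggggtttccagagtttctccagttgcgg
In the Txnrd1 window the match to the antioxidant response element lies at bases 159 to 167 and reads GCTTTGTCA, on the other strand, and a CCAAT lies at bases 88 to 92. The other 2 Txnrd1 windows held no match to any motif searched. In the Txnip window the carbohydrate response element match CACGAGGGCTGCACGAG lies at bases 166 to 182, the forkhead match at bases 130 to 136, and CCAAT matches at bases 114 to 118 (other strand) and 149 to 153. No matches overlapped. Of all 32851 promoter windows in the table, 12.4% held the antioxidant response element core, 0.0487% the carbohydrate response element, 3.65% the forkhead motif, 37.4% CCAAT and 13.6% TATAAA. Among the 9 members with a window (Txnl1 had none here), the antioxidant response element core was found in Txnrd1 alone and the carbohydrate response element and forkhead motif in Txnip alone. CCAAT was found in 4 (Txnrd1, Txnip, Txn2 and Glrx3) and TATAAA in Txn1 alone. The motif letters were chosen with these windows in view, and a match describes the sequence only.

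Across the 10 members, 2 rose (Txnrd1 and Txnl1), 1 fell (Txnip) and 7 did not pass the test in the libraries labelled Txn1 KO. The test was limma on log2(normalized count + 1), and a gene was called where its p, adjusted by Benjamini-Hochberg over all genes tested, was under 0.05. Of all 13977 genes tested, 21.5% were called, 11.5% higher and 9.97% lower. The median log2 difference of the members was -0.02, against -0.0049 over all genes tested. On the reads recovered from the table, edgeR's quasi-likelihood test called 21.2% of genes and the same 3 members, and the authors' deposited table called 19.2% and the same 3 members. The values of the groups did not overlap for 5 members (Txn2, Txnrd1, Txnip, Txnl1 and Nxn), and for 36.2% of all genes tested.

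**Figure D1:**
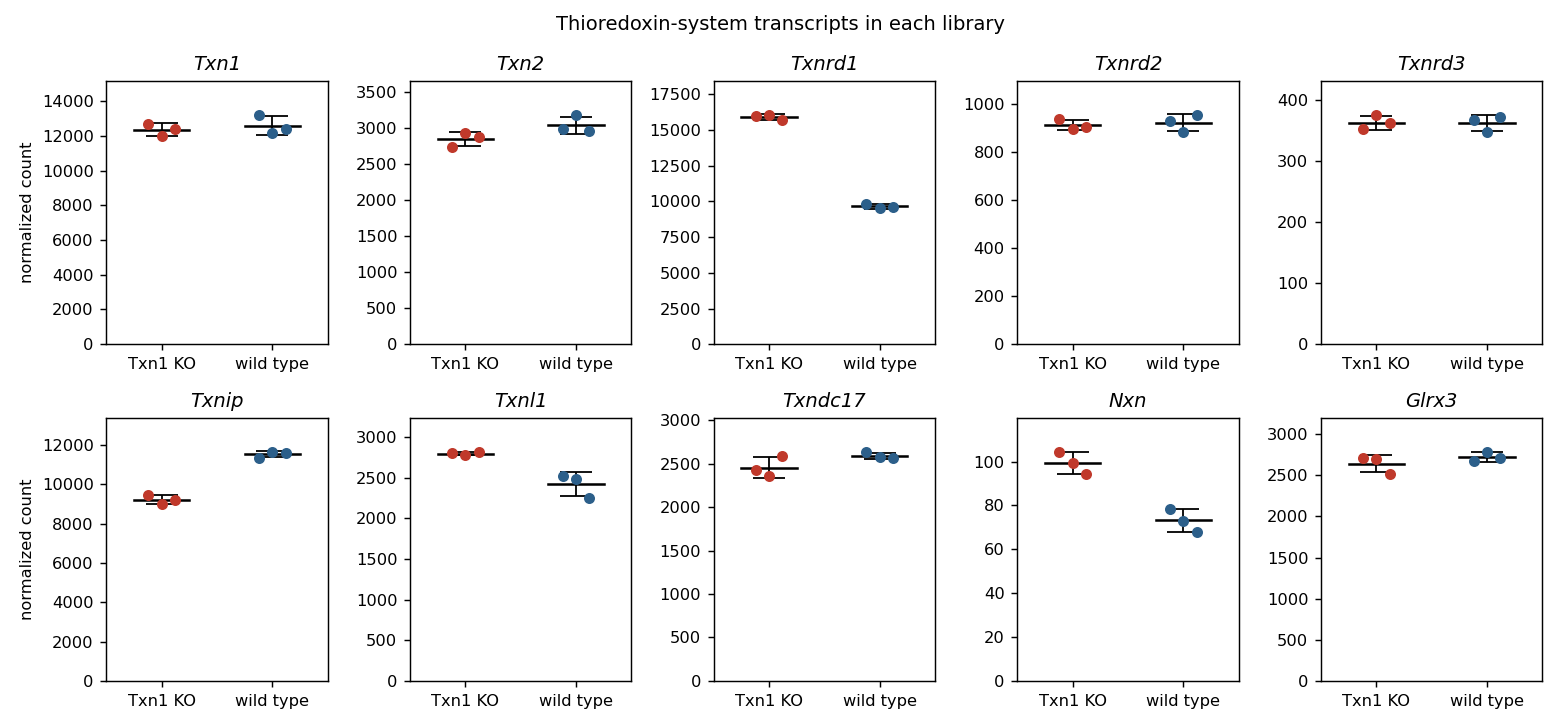
Normalized count (vertical axis, from 0) of each of the 10 genes in the 3 libraries labelled Txn1 KO (red, left) and the 3 wild-type libraries (blue, right). Lines are means and bars SD. Txnrd1 averages 15894 normalized counts in the libraries labelled Txn1 KO and 9649 in wild type, Txnip 9222 in the libraries labelled Txn1 KO and 11532 in wild type, while the Txn1 points of the groups overlap.

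Txn1 (ENSMUSG00000028367, chromosome 4, 57943373 to 57956411, minus strand, GRCm38), the targeted gene, had 12695, 11963 and 12389 normalized counts in the libraries labelled Txn1 KO, against 13176, 12155 and 12409 in wild type. The values of the groups interleaved, and no library labelled Txn1 KO was near 0. The log2 difference was -0.03 ± 0.037 (SE; limma adjusted p = 0.686), and its 95% interval ran from 93.0% to 104% of wild type. The difference was 0.00497 without the libraries carrying liver transcripts and 0.0075 without wild-type library 1. The annotation holds 1 transcript of 1051 bases for Txn1. Which exons the allele removes is not in the labels, and a count over the whole gene includes reads from any exons that remain, so this level checks neither the deletion nor the protein.

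Txn2 (chromosome 15, 77915047 to 77929006, minus strand), the mitochondrial thioredoxin, had 2745, 2937 and 2875 normalized counts in the libraries labelled Txn1 KO and 2985, 3181 and 2964 in wild type. Each value labelled Txn1 KO lay below each wild-type value, though by little. The log2 difference was -0.09 ± 0.042 (SE; limma adjusted p = 0.137), which did not pass the test.

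Of the reductases, Txnrd1 rose and Txnrd2 and Txnrd3 did not pass the test. Txnrd1 (ENSMUSG00000020250, chromosome 10, 82833951 to 82897712, plus strand), the cytosolic reductase, had 15986, 16024 and 15671 normalized counts in the libraries labelled Txn1 KO, against 9819, 9528 and 9600 in wild type. The values were tight within each group and far apart between the groups. Txnrd1 was 1.65-fold higher, with a log2 difference of 0.72 ± 0.031 (SE; 95% interval 0.65 to 0.79; limma adjusted p = 3.11e-11). Without the libraries carrying liver transcripts the difference was 0.74 (limma adjusted p = 1.55e-06).

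Txnrd2 (chromosome 16, 18426384 to 18479073, plus strand), the mitochondrial reductase, had 936.7, 895.6 and 903.0 normalized counts in the libraries labelled Txn1 KO and 927.2, 882.8 and 952.5 in wild type. Txnrd3 (chromosome 6, 89643988 to 89675529, plus strand), a reductase with an added glutaredoxin domain that is best known from testis, had 352.4, 375.1 and 362.0 normalized counts in the libraries labelled Txn1 KO and 366.8, 348.1 and 372.3 in wild type. In both genes the groups overlapped. The 95% interval of the log2 difference ran from -0.13 to 0.10 for Txnrd2 and from -0.16 to 0.17 for Txnrd3 (limma adjusted p = 0.899 and 0.984), intervals that lie below the whole interval of Txnrd1.

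Txnip (ENSMUSG00000038393, chromosome 3, 96557957 to 96561883, plus strand), an alpha-arrestin that binds reduced thioredoxin and restrains glucose uptake, had 9449, 9001 and 9215 normalized counts in the libraries labelled Txn1 KO, against 11354, 11636 and 11607 in wild type. All values labelled Txn1 KO lay below all wild-type values. Txnip stood at 80.0% of wild type, with a log2 difference of -0.32 ± 0.033 (SE; 95% interval -0.39 to -0.25; limma adjusted p = 1.29e-06). Without the libraries carrying liver transcripts the difference was -0.33 (limma adjusted p = 0.000276). The antisense gene Gm15441 overlaps Txnip exons but averaged 12.8 normalized counts in the libraries labelled Txn1 KO and 12.1 in wild type.

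Among the thioredoxin-like proteins, Txnl1 (ENSMUSG00000024583, chromosome 18, 63661094 to 63708801, minus strand), a cytosolic thioredoxin that associates with the proteasome, had 2800, 2781 and 2817 normalized counts in the libraries labelled Txn1 KO, against 2528, 2488 and 2248 in wild type. The groups did not overlap, and the wild-type libraries were spread more widely. The log2 difference was 0.21 ± 0.046 (SE; limma adjusted p = 0.00289), and 0.24 without the libraries carrying liver transcripts (limma adjusted p = 0.0141). Wdr7, on the opposite strand, shares exon bases with Txnl1, and the sources used here do not say whether strand was used in counting, so the Txnl1 level is uncertain. Wdr7 differed by -0.05 on the log2 scale (limma adjusted p = 0.532).

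Nxn (chromosome 11, 76257198 to 76399140, minus strand), nucleoredoxin, which is known to bind Dishevelled in Wnt signalling, had 104.3, 99.5 and 94.2 normalized counts in the libraries labelled Txn1 KO and 78.5, 73.0 and 67.9 in wild type. The groups did not overlap, but only 70 to 104 reads per library stood behind these values. The log2 difference of 0.44 ± 0.16 (SE; 95% interval 0.10 to 0.77) did not pass the test (limma adjusted p = 0.0594). It passed where libraries were scaled by their total reads in listed genes, at 0.33 (limma adjusted p = 0.0472).

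Txndc17 (chromosome 11, 72207547 to 72210015, plus strand), a small thioredoxin-related protein that Txnrd1 reduces, had 2425, 2359 and 2585 normalized counts in the libraries labelled Txn1 KO and 2635, 2576 and 2568 in wild type. Txn1 KO library 3 lay within the wild-type range. The log2 difference was -0.08 ± 0.043 (SE; limma adjusted p = 0.223). Glrx3 (chromosome 7, 137437614 to 137468594, plus strand), a glutaredoxin with a thioredoxin domain that carries iron-sulfur clusters, had 2710, 2695 and 2522 normalized counts in the libraries labelled Txn1 KO and 2671, 2784 and 2716 in wild type, which overlapped (log2 difference -0.04 ± 0.042, SE; limma adjusted p = 0.522).

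**Figure D2:**
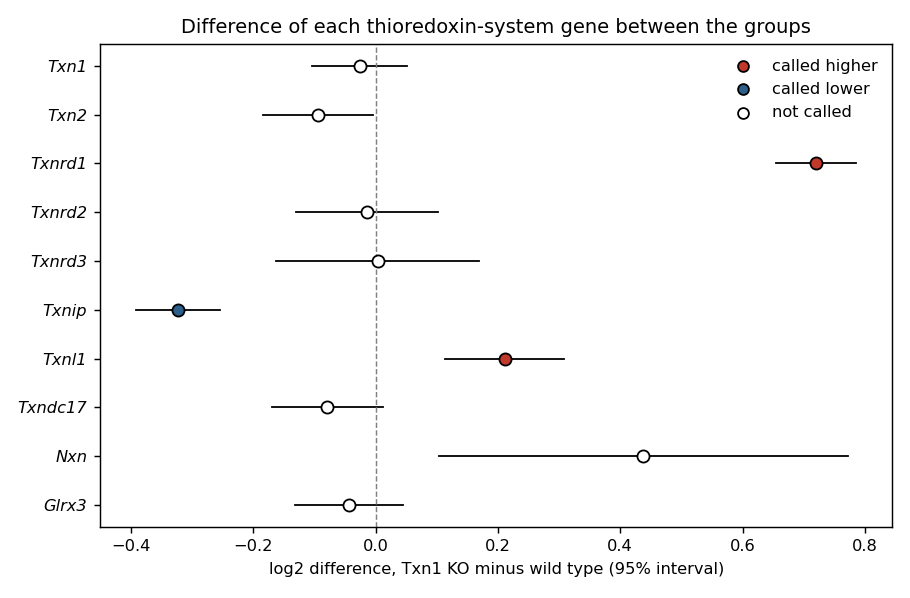
Log2 difference of the libraries labelled Txn1 KO minus wild type (horizontal axis) for each of the 10 genes, with 95% intervals from limma. Red marks called higher (Txnrd1 at 0.72 and Txnl1 at 0.21), blue called lower (Txnip at -0.32), and white not called.

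Markers of other cell types were read beside these results. Over all genes tested, 11.5% were called higher and 9.97% lower. Of 10 stromal markers, 6 fell and none rose, with a summed level of 1221 to 2136 normalized counts in the libraries labelled Txn1 KO and 2523 to 2865 in wild type. Col1a1, the highest of them, was called lower though its groups overlapped (534.3 ± 218 normalized counts in the libraries labelled Txn1 KO, 798.9 ± 109 in wild type, SD, n = 3 each). Its call was lost in 7 alternatives, among them the authors' deposited statistics (adjusted p = 0.295) and DESeq2 (adjusted p = 0.290). That of Col3a1 was lost in 3. Without the libraries carrying liver transcripts 4 of the stromal markers fell. Thy1, a defining one that did not pass the test, went unevenly, with 99.7, 1.91 and 0 normalized counts in the libraries labelled Txn1 KO and 0, 1.55 and 10.1 in wild type. Without Txn1 KO library 3 the stromal marker Sparc was called higher, at 0.35 on the log2 scale (limma adjusted p = 0.0156). Of 7 dendritic cell markers listed, 3 rose and none fell, with sums of 5712 to 6383 in the libraries labelled Txn1 KO and 3725 to 4036 in wild type, most of it Itgax (5568 ± 372 normalized counts in the libraries labelled Txn1 KO and 3525 ± 139 in wild type, SD, n = 3 each), which macrophages also express. Without the libraries carrying liver transcripts 2 of these rose. Of 4 granulocyte markers listed, 1 fell, and the sums were 231.5 to 266.6 in the libraries labelled Txn1 KO and 257.8 to 263.4 in wild type. That marker, S100a9, was not called without the libraries carrying liver transcripts (limma adjusted p = 0.0545) or without wild-type library 2 (0.0583). Cd79b was the 1 lymphoid marker listed, at 20.1 to 28.3 in the libraries labelled Txn1 KO and 24.1 to 30.6 in wild type. Of the 7 liver markers listed, none passed the test, and Fgb and Fgg were at 0 in the 4 libraries without this liver signal. No erythroid marker was in the table. The part of stromal and dendritic cell transcripts in the members' differences was not tested. In bulk RNA, fewer cells of a type and less RNA per cell cannot be told apart.

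Levels were compared between members only per length, as normalized counts per kb of annotated exon. Txn1 was the highest, at 11750 ± 350 per kb in the libraries labelled Txn1 KO and 11969 ± 506 in wild type (SD, n = 3 each). Txnip followed at 2953 ± 71.7 per kb in the libraries labelled Txn1 KO and 3693 ± 49.7 in wild type. The order of the next members differed between the groups. In the libraries labelled Txn1 KO, Txnrd1 (2243 ± 27.4 per kb) lay above Txndc17 (1855 ± 88.0) in each of the 3 libraries, while in wild type Txndc17 (1959 ± 27.5) lay above Txnrd1 (1362 ± 21.4) in each of the 3.

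Below them came Txn2 at 677.8 ± 23.2 per kb in the libraries labelled Txn1 KO and 723.3 ± 28.5 in wild type, Glrx3 at 526.8 ± 20.9 in the libraries labelled Txn1 KO and 542.9 ± 11.3 in wild type, and Txnl1 at 432.9 ± 2.80 in the libraries labelled Txn1 KO and 374.5 ± 23.4 in wild type. Txnrd2 (207.2 ± 4.97 in the libraries labelled Txn1 KO, 209.2 ± 8.02 in wild type) and Txnrd3 (128.1 ± 4.01 in the libraries labelled Txn1 KO, 127.8 ± 4.46 in wild type) lay lower. Nxn was the lowest, at 30.7 ± 1.56 per kb in the libraries labelled Txn1 KO and 22.6 ± 1.63 in wild type. Apart from Txndc17 and Txnrd1, each neighbour in this order stood in the same place in all 3 libraries of each group. Txnrd1 exons sum to 7086 bases and its longest transcript to 3622, so by the longest transcript it stood higher. In the libraries labelled Txn1 KO it was then at 4388 per kb, above Txnip at 3262 and Txndc17 at 2504. In wild type it was at 2664 per kb, below Txnip at 4079 and just above Txndc17 at 2643. Its place among the members therefore depends on which transcripts the cells use, which gene counts do not show.

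**Figure D3:**
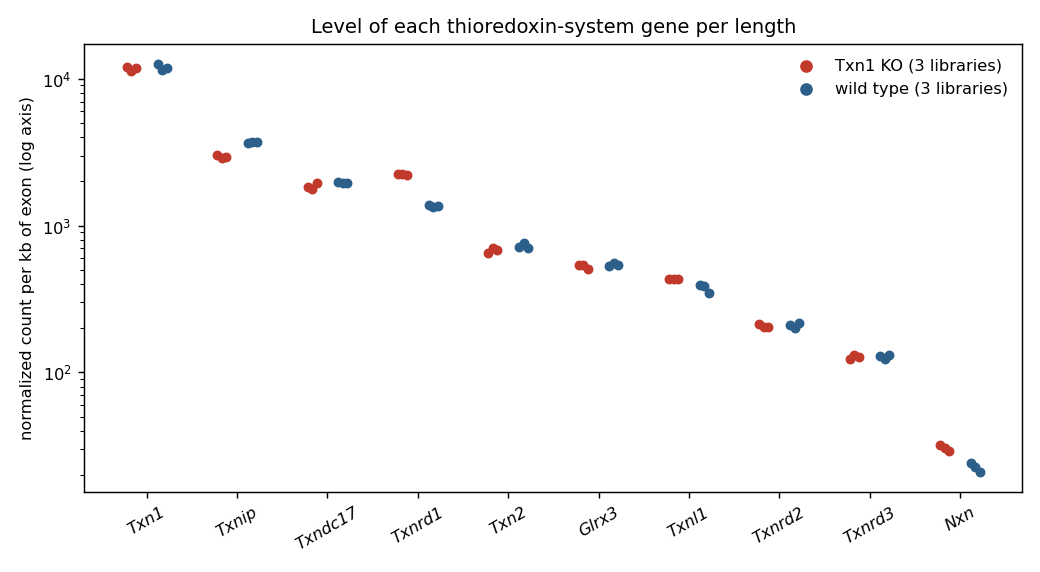
Normalized count per kb of exon (log axis) of the 10 genes, ordered by their mean, with 3 libraries labelled Txn1 KO (red, left) and 3 wild-type libraries (blue, right) per gene. Txn1 averages 11750 per kb in the libraries labelled Txn1 KO and 11969 in wild type, and Nxn 30.7 in the libraries labelled Txn1 KO and 22.6 in wild type.

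Ratios between members inside a library do not depend on how libraries were scaled to each other. The ratio of Txnrd1 to Txn1 normalized counts was 1.26, 1.34 and 1.26 in the libraries labelled Txn1 KO, against 0.745, 0.784 and 0.774 in wild type. Reads of the reductase thus outnumbered those of the thioredoxin in each library labelled Txn1 KO and in no wild-type library. This holds for reads and not for level per length, since Txnrd1 exons sum to 7086 bases and Txn1 exons to 1051. Per kb of exon, Txn1 lay above Txnrd1 in both groups (11750 against 2243 in the libraries labelled Txn1 KO, 11969 against 1362 in wild type). Txnrd1 to Txnrd2 was 17.4 ± 0.419 in the libraries labelled Txn1 KO and 10.5 ± 0.368 in wild type, and Txnrd1 to Txnrd3 was 43.8 ± 1.39 in the libraries labelled Txn1 KO and 26.6 ± 0.798 in wild type (SD, n = 3 each). Both separated the groups without overlap.

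Txnip to Txn1 was 0.744, 0.752 and 0.744 in the libraries labelled Txn1 KO, against 0.862, 0.957 and 0.935 in wild type. Txnip to Txnrd1 was 0.580 ± 0.0161 in the libraries labelled Txn1 KO and 1.20 ± 0.0345 in wild type (SD, n = 3 each), a log2 difference of -1.04. By contrast, Txn2 to Txn1 (0.231 ± 0.0146 in the libraries labelled Txn1 KO, 0.242 ± 0.0178 in wild type) and Txnrd2 to Txn2 (0.320 ± 0.0188 in the libraries labelled Txn1 KO, 0.303 ± 0.0229 in wild type) overlapped between the groups. Over the 7 ratios compared, the two-sided exact permutation p was 0.10 for the 5 that hold Txnrd1 or Txnip, the smallest that 3 against 3 allows, and 0.50 for the other two. Adjusted over the 7 by Benjamini-Hochberg, these were 0.14 and 0.50, so the test cannot pass 0.05 in this design.

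**Figure D4:**
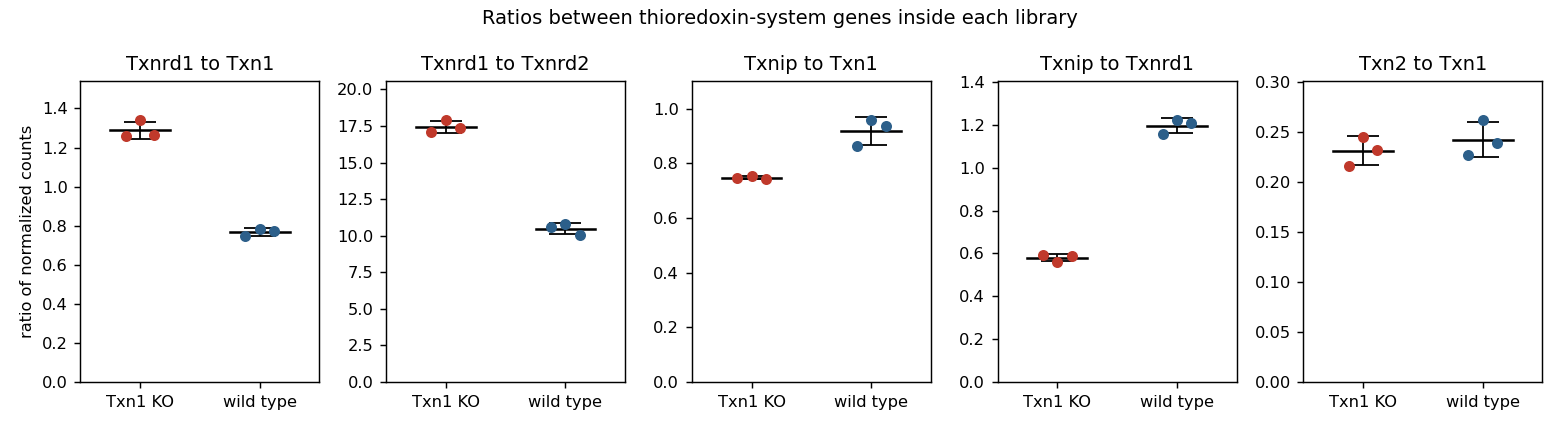
Ratio of normalized counts inside each library (vertical axes, from 0) for 5 pairs of genes, in the libraries labelled Txn1 KO (red, left) and wild type (blue, right), with means and SD. Txnip to Txnrd1 averages 0.580 in the libraries labelled Txn1 KO and 1.20 in wild type, and the Txn2 to Txn1 points overlap.

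Enzymes that thioredoxin serves, with related peroxiredoxins and partners, were split. Of 15 such genes, 6 rose, 1 fell and 8 did not pass, with a median log2 difference of -0.05. The share to set beside this and the following lists is that over all genes tested: 21.5% called, 11.5% higher and 9.97% lower. The largest rises were Prdx6 (1.29 ± 0.052, log2, SE) and Prdx1 (0.96 ± 0.042), peroxiredoxins that reduce peroxides, and Srxn1 (1.20 ± 0.038), sulfiredoxin, which repairs overoxidized peroxiredoxins. Prdx6 is known to be reduced through glutathione and not by thioredoxin, so it is on the list as a peroxiredoxin and is no thioredoxin substrate. Prdx1 had 112860, 106537 and 118289 normalized counts in the libraries labelled Txn1 KO, against 57050, 61152 and 55586 in wild type. Msrb1, a selenium-containing methionine sulfoxide reductase, rose by less, with 13704 ± 49.0 normalized counts in the libraries labelled Txn1 KO and 11317 ± 479 in wild type (log2 0.28, limma adjusted p = 1.61e-05). Rrm2 also rose, at 0.49 (limma adjusted p = 0.0157), but its call was lost in 4 alternatives. Among them were the fits without Txn1 KO library 1 (limma adjusted p = 0.0545), wild-type library 2 (0.0597) and wild-type library 3 (0.103). Prdx1 and Srxn1 are also on the NRF2 list below.

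Of 16 other thioredoxin-fold genes listed, 2 fell, none rose and 14 did not pass, with a median of -0.06. Txndc12, a thioredoxin-domain protein of the endoplasmic reticulum, had 966.1 ± 24.3 normalized counts in the libraries labelled Txn1 KO and 1134 ± 21.1 in wild type (log2 -0.23, limma adjusted p = 0.00318). Txndc15 had 1528 ± 8.40 normalized counts in the libraries labelled Txn1 KO and 1733 ± 72.0 in wild type (log2 -0.18, limma adjusted p = 0.00914). Its call was lost without the libraries carrying liver transcripts (limma adjusted p = 0.0545).

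Txnip belongs to the alpha-arrestins, and its transcription is known to depend on MondoA, encoded by Mlxip, with its partner Mlx. Of 6 genes listed of this group besides Txnip, 2 rose, none fell and 4 did not pass. Arrdc4, an alpha-arrestin also known as a target of MondoA, had 718.7, 765.5 and 880.2 normalized counts in the libraries labelled Txn1 KO, against 627.7, 599.1 and 629.7 in wild type. That is a log2 difference of 0.34 ± 0.072 (SE; limma adjusted p = 0.00220), on the other side of 0 from that of Txnip. Arrdc3 had a log2 difference of 0.25 ± 0.070 (SE; limma adjusted p = 0.0154), and the call was lost without Txn1 KO library 3 (limma adjusted p = 0.0584), wild-type library 1 (0.0762), wild-type library 3 (0.0577) or both libraries carrying liver transcripts (0.226). Arrdc1, another alpha-arrestin, did not pass at -0.11 (limma adjusted p = 0.151), but was called lower without Txn1 KO library 3, at -0.17 (0.0111), and without both libraries carrying liver transcripts, at -0.17 (0.0301). Mlxip and Mlx did not pass, at 0.05 and 0.07 (limma adjusted p = 0.504 and 0.367).

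Thioredoxin reductases need selenocysteine. Of 9 factors of selenoprotein synthesis, 2 rose, none fell and 7 did not pass, with a median of 0.02. That count is near the 21.5% called over all genes tested. Sephs2, which makes the selenium donor, had 2940, 2961 and 3285 normalized counts in the libraries labelled Txn1 KO, against 2411, 2236 and 2432 in wild type (log2 0.37 ± 0.049, SE; limma adjusted p = 2.41e-05). Secisbp2l differed by 0.12 (limma adjusted p = 0.0409), a call that was lost without any 1 of the 6 libraries (limma adjusted p from 0.0550 to 0.123) and under DESeq2 (Secisbp2l adjusted p = 0.0550), the replicate block (0.0743) and quantile normalization (0.0708). Eefsec, the elongation factor for selenocysteine, did not pass at -0.23 (limma adjusted p = 0.0537) though its groups did not overlap. It was called lower under 5 of the alternatives, among them without Txn1 KO library 3 (limma adjusted p = 0.0248), without wild-type library 1 (0.0491) and without both libraries carrying liver transcripts (0.0406). Pstk, a kinase of the same pathway, was called lower without Txn1 KO library 1 (limma adjusted p = 0.0470).

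Other selenoproteins did not move as one group. Of 15 listed, 2 rose, 2 fell and 11 did not pass, with a median of 0.01. Their count, too, is near the 21.5% called over all genes tested. Gpx3, an extracellular glutathione peroxidase, had 1397 ± 37.5 normalized counts in the libraries labelled Txn1 KO and 789.4 ± 49.4 in wild type (log2 0.82, limma adjusted p = 1.06e-08), and Selenos, of the endoplasmic reticulum membrane, differed by 0.22. Selenow, a small redox protein, had 1646 ± 74.3 normalized counts in the libraries labelled Txn1 KO and 2125 ± 127 in wild type (log2 -0.37, limma adjusted p = 4.66e-05), and Dio2, a deiodinase of thyroid hormone, differed by -0.29. Without the libraries carrying liver transcripts Gpx1 was also called higher, at 0.14 (limma adjusted p = 0.0360), and Selenop lower, at -0.12 (0.0247).

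The NRF2 list holds the factor, its partners and inhibitors, and textbook targets other than Txnrd1. Of its 17 genes, 15 rose, none fell and 2 did not pass, with a median log2 difference of 0.85, against 0.72 for Txnrd1. Nfe2l2, which encodes NRF2, rose by only 0.12 (limma adjusted p = 0.0149). Its call was lost in 2 alternatives, among them without wild-type library 3 (limma adjusted p = 0.0842). The call of Maff was lost in 4 alternatives and that of Bach1 in 1. Mafk, a partner of NRF2, was called lower without Txn1 KO library 2, at -0.20 (limma adjusted p = 0.0162), without wild-type library 1, at -0.19 (0.0271), and under quantile normalization, at -0.16 (0.0437). Gclm and Gclc, the subunits of the enzyme that starts glutathione synthesis, differed by 1.55 ± 0.047 and 1.19 ± 0.043 (log2, SE), and Gsr, glutathione reductase, by 1.08 ± 0.045. Gsr does for glutathione what Txnrd1 does for thioredoxin, and had 5042, 5016 and 5589 normalized counts in the libraries labelled Txn1 KO, against 2538, 2422 and 2414 in wild type. The direction of these genes was known from earlier results of the same libraries, so the list is context and not independent evidence.

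**Figure D5:**
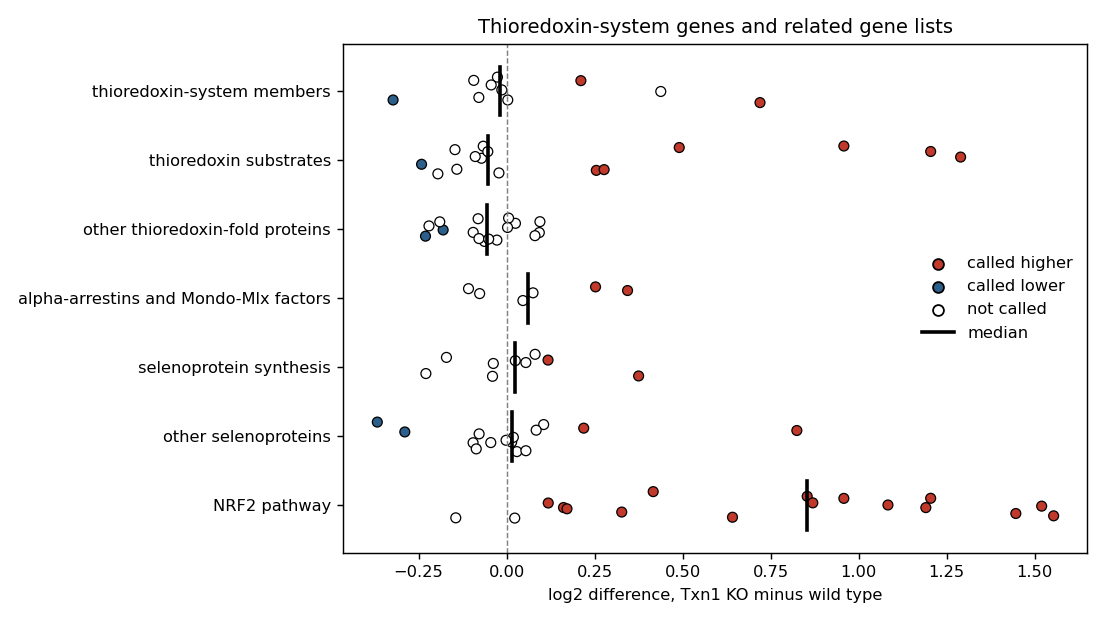
Log2 difference of the libraries labelled Txn1 KO minus wild type (horizontal axis) for the 10 thioredoxin-system genes and 6 related lists (rows). Each point is a gene (red called higher, blue called lower, white not called) and the bar is the row's median, which is 0.85 in the NRF2 list and between -0.06 and 0.06 in the others.

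The genes whose pattern over the 6 libraries was most like that of Txnrd1, by Pearson's r of log2(normalized count + 1) among 10239 other genes with a mean of at least 100, were Slc38a6 (r = 0.9996), a member of an amino acid transporter family, Layn (r = 0.9993), layilin, and Gm20658 (r = 0.9991), which is annotated as antisense and so uncertain. Layn had 1225 ± 3.89 normalized counts in the libraries labelled Txn1 KO and 457.7 ± 17.1 in wild type (SD, n = 3 each). Most like Txnip were Cdkn2d (r = 0.9979), a cyclin-dependent kinase inhibitor, H2-Q7 (r = 0.9975), an MHC class I gene whose level is uncertain because close copies may take or give reads, and Smg9 (r = 0.9974), a factor of nonsense-mediated decay. An r over 0.99 was reached by 118 genes for Txnrd1 and 32 for Txnip. These values share 6 libraries in 2 groups, so any gene that differs between the groups by more than its spread has a high r.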

How the data were processed

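The authors deposited 1 table of 14005 genes, holding for each gene a normalized signal per library, their log2 fold change, and a p-value with its adjusted form. Tools named in the submitters' processing notes are STAR 2.5.2b, Trimmomatic 0.36, bcl2fastq 2.20 and DESeq2, and the genome is GRCm38 (mm10). The program that counted reads, its use of strand and its annotation were not named in these sources. The deposited signal is a read count over a library's size factor: 100% of values in each library were whole multiples of 1 step, at a tolerance of 0.01 reads, and dividing by the step gave the reads back. A floor of 3 reads equals 2.33 to 4.04 normalized counts, counting error only. The lowest mean in the table was 9.28 normalized counts. The authors' log2 fold changes and p-values served only as an alternative. The control columns carry a cell name and a number, and wild type is the only group left for them.

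The main test was limma 3.58.1 (R 4.3.3, trended variance) on log2(normalized count + 1) in the 13977 genes averaging at least 10, two-sided. Fold changes without "log2" are ratios of mean normalized counts. The pseudocount understates the change of low genes. On recovered reads, edgeR 4.0.16 (quasi-likelihood) made 2969 calls, 2912 of them shared with limma, and DESeq2 1.42.0 made 2706. Positions and exon lengths were read from GENCODE M21 (GRCm38), which held 13950 of the tested genes. Promoters were RefSeq's on GRCm38.p6, for 9 of the 10 members, with member windows on chromosome 18, and so Txnl1, left out. Scripts were tested on simulated data.

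Members, the 13 other lists, tests, alternatives and the naming rule were all chosen with earlier results of these data known. The rule names the members, Lyz2, up to 4 called genes of smallest p in each list, the highest marker of each cell type, and the 3 genes most like Txnrd1 and Txnip. Alb, Fgb, Fgg, Thy1, Sparc, S100a9, Gm15441, Wdr7, Eid3, Arrdc1, Eefsec, Pstk, Gpx1, Selenop, Mafk, Mlxip and Mlx were added once their values had been seen. So were Nfe2l2, Maff, Bach1, Col3a1, Rrm2, Itgam and Cd68. Alternatives were other pseudocounts, filters, thresholds, scalings and tests, leaving out each library or both with liver transcripts, and a block for the replicate number.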

Additional observations from a re-analysis of the deposited data

How the results depend on the processing

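The calls of Txnrd1, Txnip and Txnl1 held under each of the 18 alternatives, with log2 differences from 0.71 to 0.74 for Txnrd1, from -0.34 to -0.31 for Txnip and from 0.16 to 0.24 for Txnl1. The highest adjusted p of Txnl1 was 0.0275. Nxn passed only where libraries were scaled by their total reads in listed genes (0.33), and its adjusted p otherwise ran up to 0.180. Differences near 0 changed sign in some settings. Leaving out 1 library at a time gave -0.051 to 0.0075 for Txn1 (above 0 without wild-type replicate 1), -0.044 to 0.011 for Txnrd2 (above 0 without wild-type replicate 3), -0.025 to 0.025 for Txnrd3 (below 0 without replicate 2 of either group) and -0.033 to 0.034 for the marker Trf (below 0 without Txn1 KO replicate 1 or 2 or wild-type replicate 2). Txn1 was 0.00497 without both libraries with liver transcripts, and under quantile normalization Txnrd3 was -0.0019 and Trf -0.0051. The cause was not tested. At an adjusted p under 0.01, a stricter threshold by construction, 1024 genes were higher and 809 lower. Leaving out 1 library at a time gave 891 to 1304 lower genes, the fewest without wild-type replicate 3. The 7 ratios kept their direction when any library was left out.

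The deviations of same-numbered libraries from their group means correlated at -0.27, 0.14 and -0.33, and of the libraries only wild-type replicate 2 correlated best with its own number. The highest value, 0.43, was between Txn1 KO replicate 3 and wild-type replicate 1, the libraries with liver transcripts. Deviations within a group sum to 0, so a high pair lowers the others. These values therefore cannot decide whether the numbers mark pairs. With the replicate number as a block, 1433 genes were higher and 1242 lower, and 2 members rose and 1 fell. In this balanced design the block leaves each log2 difference unchanged by arithmetic, and only the p-values can move. The same holds for the ratios, such as 0.75 for Txnrd1 to Txn1 (log2) and -1.04 for Txnip to Txnrd1, so their unchanged values are no check. Depth limits Nxn most, with 70 to 104 reads per library.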

Other observations

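Eid3, an inhibitor of the acetyltransferase EP300 whose gene lies inside Txnrd1 on the same strand (chromosome 10, 82866626 to 82867930, GRCm38), was looked up because of its position. It had 37.1, 39.2 and 49.8 normalized counts in the libraries labelled Txn1 KO, against 30.6, 24.1 and 14.3 in wild type. The groups did not overlap, and the log2 difference was 0.90 ± 0.31 (SE; limma adjusted p = 0.0463). Its exons share no bases with annotated Txnrd1 exons, though unspliced Txnrd1 RNA crosses them and the counts cannot separate the genes there. The part of such RNA in the difference was not tested.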
